A study of Mus musculus with 2 samples.

Results

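Endothelial cells pass fatty acids from blood to tissue, and 9 genes of that route were followed in single endothelial cells of mouse sciatic nerve: Lpl, Gpihbp1, Cd36, Fabp4, Fabp5, Aqp7, Acsl1, Pparg and Pltp. They were taken as a list of genes and not by a threshold on their values. The list was, however, chosen with earlier results of these data known. Counts of members set beside those of all genes are therefore a description. The members are 9 of the 53380 features counted. For each gene, unique molecules (UMIs) were summed over the cells of each class that the authors' cell table gives, in each library, and expressed as counts per 1000000 UMIs (CPM) and as the share of cells with at least 1 UMI. Each group is 1 library: Injury_D7, called injured here, holds cells from the bridge, the tissue that forms at the lesion, on day 7 after nerve injury, and Intact holds cells from uninjured nerves. In both, adult mice carried the reporter that the labels spell Chd5CreER/R26-TdTomato, an inducible Cre under the endothelial Cdh5(PAC) promoter with a tdTomato allele that needs Cre, and nerves were pooled before sorting of tdTomato-positive, CD45-negative cells. The sort selected for cells that had recombined the reporter, though barcodes rich in fibroblast markers were found in both libraries. Injury cannot be told apart from the animals, the sort or the sequencing run. No test was therefore made. The 95% intervals are exact (Poisson for CPM, conditional binomial for ratios, Clopper-Pearson for shares) and cover counting error only.

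In capillaries, triglyceride-rich lipoproteins are hydrolysed by lipoprotein lipase (Lpl), which is made mostly by adipocytes and muscle cells and is held on the luminal surface by Gpihbp1, a protein that endothelial cells make. The fatty acids that are set free enter through the scavenger receptor Cd36 and are carried in the cytosol by the binding proteins Fabp4 and Fabp5. Acsl1 joins fatty acids to coenzyme A, Aqp7 is a channel for glycerol and water, Pparg is a nuclear receptor that fatty acids activate and that drives Fabp4 and Cd36 in several cell types, and Pltp moves phospholipids between lipoproteins and is abundant in brain endothelium.

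The injured library gave 1274 endothelial cells with 19989024 UMIs and a median of 11684 UMIs per cell, and the intact library 718 cells with 4542225 UMIs and a median of 4461. The libraries share 298 barcodes. A cell whose barcode had at least 5 times its UMIs in the other library was left out, which removed 48 injured and 100 intact endothelial cells. Of the injured cells removed, 47 were labelled EC_BAR, the barrier class, which kept 36 cells. Of the intact cells removed, 48 were labelled EC_IMMAT, 27 EC_PROLIF and 17 EC_TIP, which kept 4, 11 and 4 cells, so the lack of intact levels for these classes rests on this filter. Classes were read against marker genes: EC_ART, EC_CAP-PV-, EC_BAR, EC_VEN-PV+, EC_TIP and EC_PROLIF had markers of their name among their 10 most enriched genes wherever they had 20 cells. EC_CAP-PV+ (13 injured and 42 intact cells) did not, and EC_VEN-PV- had none in injured cells. The 10 of intact EC_VEN-PV- cells held 1 venous marker, Vcam1, and 1 capillary marker, Car4, and were led by 4 haemoglobin genes. Its make-up also differed between libraries: barrier markers summed to 898 CPM in injured and 6479 CPM in intact cells, and venous markers to 3821 CPM in injured and 1867 CPM in intact cells. In EC_CAP-PV- the capillary markers summed to 2263 CPM in injured and 3799 CPM in intact cells. The part of this shift in the EC_CAP-PV- differences given below was not tested. INTERMEDIATE was led by fibroblast, myeloid and perineurial markers and was kept out of the pooled endothelium. The 10 most enriched genes of EC_CAP-PV- included Cd36, Fabp4, Gpihbp1 and Fabp5 in injured cells and Lpl, Aqp7 and Gpihbp1 in intact cells, so the order of these genes over classes is a description and was not tested.

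On GRCm38, Fabp4 (ENSMUSG00000062515.3, chr3:10204088-10208576, minus strand) and Fabp5 (ENSMUSG00000027533.10, chr3:10012548-10016607, plus strand) lie on the same chromosome. Cd36 (ENSMUSG00000002944.15) spans chr5:17781690-17888801 on the minus strand, Gpihbp1 (ENSMUSG00000022579.10) chr15:75596628-75599481 on the plus strand, Lpl (ENSMUSG00000015568.16) chr8:68880491-68907448 on the plus strand and Aqp7 (ENSMUSG00000028427.13) chr4:41033074-41048139 on the minus strand. Pparg (ENSMUSG00000000440.12) spans chr6:115360951-115490399 on the plus strand, Pltp (ENSMUSG00000017754.13) chr2:164839518-164857711 on the minus strand and Acsl1 (ENSMUSG00000018796.13) chr8:46471037-46536051 on the plus strand. Pltp overlaps Ctsa, Pparg overlaps Gm44079 and Acsl1 overlaps Gm45244 on the opposite strand, and the sources used here do not say whether reads were counted by strand, so these 3 values are less certain.

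RefSeq promoter windows (GRCm38.p6) were found for Cd36, Aqp7, Pparg, Pltp and Acsl1, 9 windows in all, and not for Fabp4, Fabp5, Gpihbp1 and Lpl. Those shown here were chosen because Cd36, Aqp7 and Pltp were the genes with a window that were lower in injured endothelium (values below). Each is the 250 bases before an annotated start, 5′ to 3′ on the minus strand, with AGGTCA or its reverse complement TGACCT, the hexamer that nuclear receptors such as Pparg bind, in capitals.
Cd36, chr5:17835897-17836146: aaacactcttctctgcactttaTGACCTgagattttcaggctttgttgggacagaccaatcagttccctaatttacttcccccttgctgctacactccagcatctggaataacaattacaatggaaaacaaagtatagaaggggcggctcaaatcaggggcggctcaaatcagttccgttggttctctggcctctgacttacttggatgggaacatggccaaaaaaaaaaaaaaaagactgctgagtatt
Aqp7, chr4:41047963-41048212: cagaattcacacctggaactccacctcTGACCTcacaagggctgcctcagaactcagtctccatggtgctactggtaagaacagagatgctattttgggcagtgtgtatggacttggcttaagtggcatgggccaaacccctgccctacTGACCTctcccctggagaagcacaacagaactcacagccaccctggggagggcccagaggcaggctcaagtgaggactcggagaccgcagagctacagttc
Pltp, chr2:164857709-164857958: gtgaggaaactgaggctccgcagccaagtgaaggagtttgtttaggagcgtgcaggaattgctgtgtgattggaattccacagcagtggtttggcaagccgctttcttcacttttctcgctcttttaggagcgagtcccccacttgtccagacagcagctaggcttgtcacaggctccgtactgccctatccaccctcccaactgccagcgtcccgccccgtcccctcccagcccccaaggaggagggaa
The Cd36 window held 1 copy, the Aqp7 window 2 and the Pltp window 0. Searched on both strands, the hexamer was in 5 of the 9 windows: the 1 of Cd36, both of Aqp7 and 2 of the 3 of Pparg. The 2 Aqp7 windows overlap, and 1 copy of the hexamer lies in both. It was in 4607 of all 32851 windows (14.0%). The paired form, which is AGGTCA repeated in a row with 1 base between the copies, was in 0 of the 9 and in 11 of all windows (0.0335%). A match is only a run of letters in these windows.

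Across the pooled endothelium, Pltp, Aqp7, Lpl and Cd36 were at least 2-fold lower in injured cells, Fabp4 was lower by less than 2-fold, and Gpihbp1, Fabp5, Acsl1 and Pparg were between the 2-fold limits with ratios above 1. A gene counts here as lower or higher when its log2 ratio of CPM + 5, injured over intact, passed 2-fold, and as measured when the mean of both libraries was 10 CPM or more. Of 8268 measured genes, 6.82% were lower and 4.79% higher, and the median log2 ratio was 0.04 (10th to 90th percentile -0.77 to 0.72). Of the 9 members 8 were measured, Acsl1 being too low. In pooled sums, fewer cells of a class and less RNA per cell cannot be told apart, so each gene is also given by class. Of the 8, 4 were lower and 0 higher, with a median log2 ratio of -0.93, or -0.71 over all 9.

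**Figure D1:**
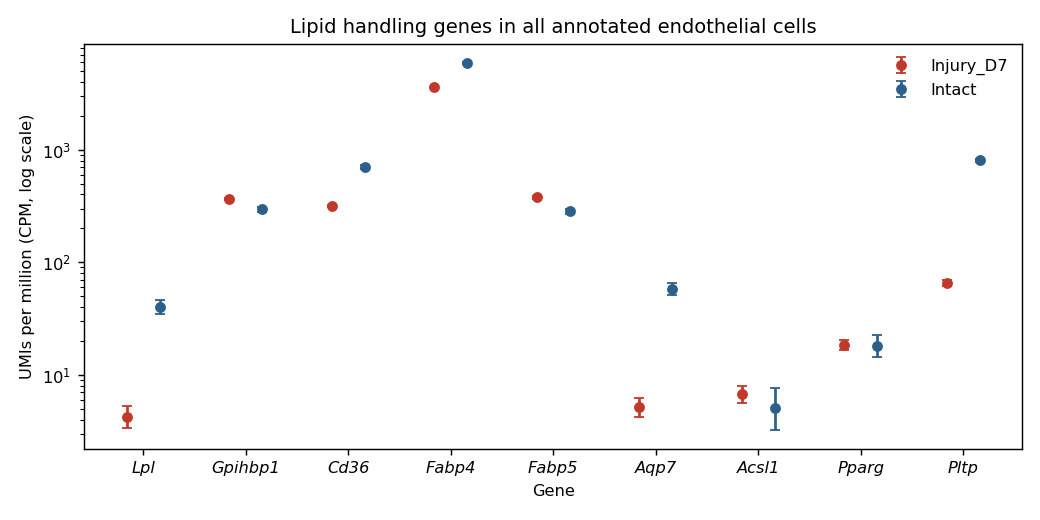
CPM of the 9 genes summed over all annotated endothelial cells, on a log axis, with Injury_D7 in red to the left of Intact in blue for each gene. Bars are exact 95% Poisson intervals of 1 library each and cover counting error only; Pltp, Aqp7, Lpl and Cd36 lie lowest relative to Intact.

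Lpl stood at 4.25 CPM (85 UMIs) in injured endothelium, against 40.3 CPM (183 UMIs) in intact endothelium, a level 9.47-fold lower (7.29 to 12.4). Most of these UMIs came from one class: EC_CAP-PV-, a capillary class, held 63 of the 85 injured and 173 of the 183 intact UMIs. Within it Lpl stood at 59.9 CPM in injured cells and at 356 CPM in intact cells, 5.95-fold lower (4.43 to 8.06). After thinning every cell to 2000 UMIs, Lpl was seen in 13.2% (6.49 to 22.9) of 76 injured cells and in 47.5% (36.2 to 59.0) of 80 intact ones, and without thinning in 25% and 48.4%. These intervals do not overlap. In the other classes of at least 20 cells the level was at most 3.94 CPM in injured and 5.20 CPM in intact endothelium. In injured arterial cells (EC_ART), 6 of the 8 UMIs were in 1 cell. With EC_CAP-PV- left out, an alternative chosen after the data were seen, the pooled log2 ratio of Lpl was -0.28, not past 2-fold, against -2.29 with that class.

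Because adipocytes are rich in Lpl, their markers were counted beside it. Of 8 adipocyte markers, 3 were detected in injured endothelium, with 4 UMIs in all (0.200 CPM), and Plin1, Lep, Retn, Adrb3 and Pck1 were at 0. In intact endothelium 4 were detected, with 5 UMIs in all (1.10 CPM), and Plin1, Cidec, Lep and Adrb3 were at 0. In EC_CAP-PV- the list summed to 0.951 CPM (1 UMI) in injured and 10.3 CPM (5 UMIs) in intact cells, so all intact UMIs of the list were in this class. Without every cell that held a UMI of the list, the pooled log2 ratio of Lpl was -2.25. With so few marker UMIs, this fit left out few cells and cannot say how much adipocyte RNA the others held.

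Gpihbp1, the endothelial anchor of Lpl, behaved differently from one class to the next. Pooled, it stood at 367 CPM (7337 UMIs) in injured and 295 CPM (1342 UMIs) in intact endothelium, a ratio of 1.24 (1.17 to 1.32). That direction turned when each cell had equal weight, with a log2 ratio of -0.36, and without every shared barcode, with -0.07. In EC_CAP-PV- the level was 1549 CPM in injured and 1618 CPM in intact cells, and the interval of the ratio, 0.879 to 1.04, includes 1. In EC_ART it was 239 CPM (485 UMIs in 144 cells) in injured and 26.6 CPM (16 UMIs in 91 cells) in intact cells, a ratio of 8.99 (5.48 to 15.9). At 2000 UMIs per cell, 20.9% (14.4 to 28.6) of injured and 2.90% (0.353 to 10.1) of intact arterial cells had a UMI. In the venous class EC_VEN-PV+ the level was 119 CPM in injured and 37.2 CPM in intact cells, a ratio of 3.21 (2.40 to 4.38). The 3 injured arterial cells with the most Gpihbp1 held 24.9% of its UMIs there, so the level did not rest on a few cells. The class labelled EC_VEN-PV- had the opposite direction, with 30.6 CPM in injured and 177 CPM in intact cells, 5.77-fold lower (3.97 to 8.49). At 2000 UMIs, 8.33% (4.07 to 14.8) of injured and 13.6% (5.17 to 27.4) of intact cells there had a UMI, with intervals that overlap. Capillary markers there summed to 352 CPM in injured and 1316 CPM in intact cells, and the part of this shift in markers in the Gpihbp1 difference was not tested.

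Over the classes of at least 20 cells, the injured order of Gpihbp1 was EC_CAP-PV- first, then EC_TIP, the class of tip cells that lead sprouts, at 745 CPM (708 to 784). EC_IMMAT at 377 CPM (358 to 396) and EC_PROLIF, the dividing class, at 343 CPM (326 to 362) came next, with intervals that overlap. In intact endothelium EC_CAP-PV- was followed by EC_CAP-PV+ at 707 CPM (592 to 838). EC_VEN-PV- at 177 CPM (142 to 218) and EC_BAR at 162 CPM (141 to 184) overlapped, as did EC_VEN-PV+ at 37.2 CPM (27.6 to 49.0) and EC_ART at 26.6 CPM (15.2 to 43.1). EC_IMMAT, EC_TIP and EC_PROLIF had 4, 4 and 11 intact cells and have no level to be set against. Fibroblast-like cells without a class, which should not make Gpihbp1, showed it in 4.18% of injured and 0.587% of intact cells at 2000 UMIs, and their unthinned median depths were 11553.5 and 6586 UMIs. The arterial and EC_VEN-PV+ shares in injured cells, 20.9% and 17.3%, were above that background, while 2.90% in intact arterial cells overlapped it.

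**Figure D2:**
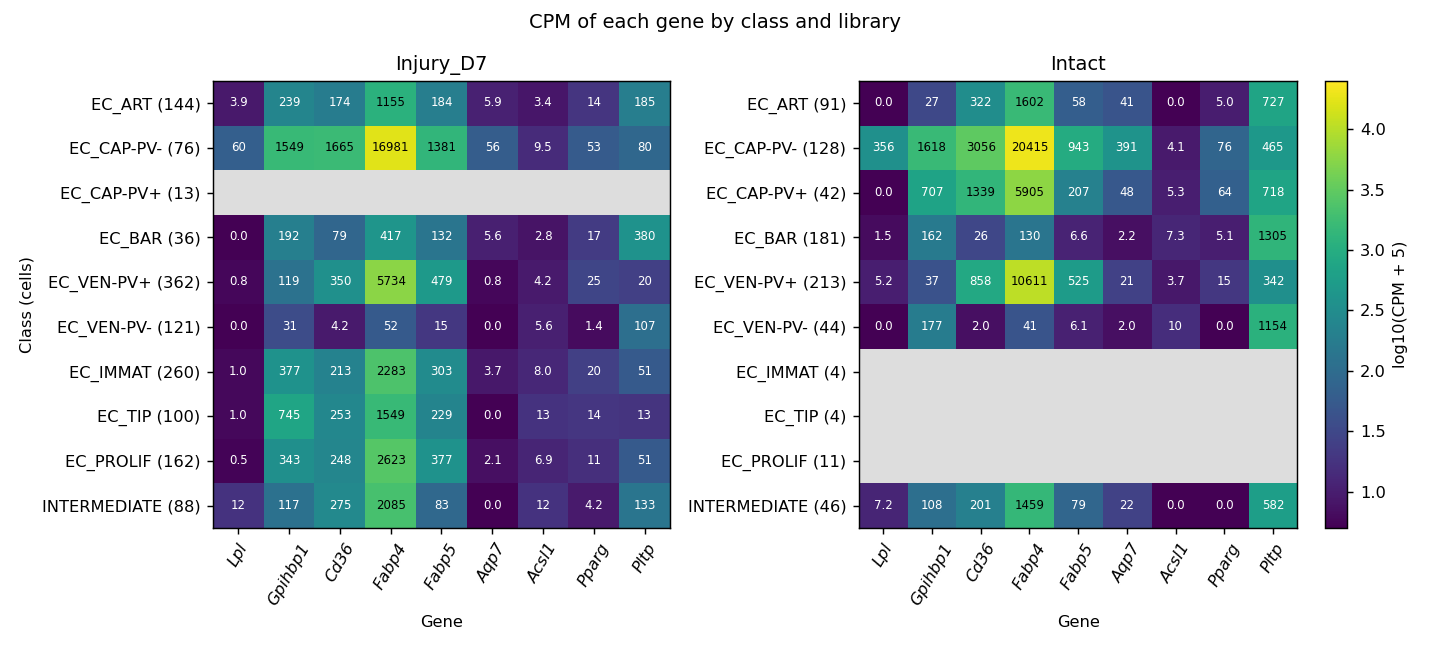
CPM of each gene (columns) in each class (rows, cells in brackets), Injury_D7 left and Intact right; colour is log10(CPM + 5) and the printed value is CPM. Grey rows had fewer than 20 cells; EC_CAP-PV- is brightest for Fabp4, Cd36 and Gpihbp1 in both libraries, and the Pltp column is darker in Injury_D7.

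Cd36, the uptake receptor, stood at 315 CPM (6288 UMIs) in injured and 701 CPM (3185 UMIs) in intact endothelium, 2.23-fold lower (2.14 to 2.33). Its CPM was below that of intact cells in each of the 3 large classes that carry it, past 2-fold in EC_VEN-PV+. EC_CAP-PV- had 1665 CPM in injured and 3056 CPM in intact cells, 1.84-fold lower (1.71 to 1.97), and EC_VEN-PV+ had 350 CPM in injured and 858 CPM in intact cells, 2.45-fold lower (2.27 to 2.64). EC_ART had 174 CPM in injured and 322 CPM in intact cells, 1.85-fold lower (1.55 to 2.21). Most capillary cells still held the transcript. At 2000 UMIs, 84.2% (74.0 to 91.6) of injured and 98.8% (93.2 to 99.97) of intact EC_CAP-PV- cells had a UMI. The medians were 2 UMIs per injured and 5 UMIs per intact cell. The pooled fold is near the limit of 2-fold. The log2 ratio was -1.14, and it was -0.79 without EC_CAP-PV- and -0.91 in cells under 5% mitochondrial UMIs.

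Fabp4, the fatty acid carrier of capillary endothelium and adipocytes, stood at 3588 CPM (71727 UMIs) in injured and 5893 CPM (26766 UMIs) in intact endothelium, 1.64-fold lower (1.62 to 1.67). EC_VEN-PV+ had 5734 CPM in injured and 10611 CPM in intact cells, 1.85-fold lower (1.81 to 1.89). EC_CAP-PV- had 16981 CPM in injured and 20415 CPM in intact cells, 1.20-fold lower (1.17 to 1.23). EC_ART had 1155 CPM in injured and 1602 CPM in intact cells. In EC_VEN-PV+ the difference was one of amount per cell: at 2000 UMIs, 92.5% of injured and 100% of intact cells held Fabp4, with medians of 9 and 20 UMIs. One injured EC_CAP-PV- cell held 3190 of the 17862 Fabp4 UMIs of its class (17.9%).

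The order of Fabp4 levels was EC_CAP-PV-, then EC_VEN-PV+, in both libraries. In injured cells EC_PROLIF at 2623 CPM (2574 to 2672), EC_IMMAT at 2283 CPM (2237 to 2329) and EC_TIP at 1549 CPM (1494 to 1605) came between those and EC_ART. In intact cells EC_CAP-PV+ at 5905 CPM (5563 to 6263) preceded EC_ART. EC_VEN-PV- had 51.5 CPM in injured and 40.6 CPM in intact cells, and Fabp4 was seen at 2000 UMIs in 6.67% and 6.82% of them. Fibroblast-like cells showed it in 5.02% of injured and 9.38% of intact cells, with intervals that overlap those of EC_VEN-PV-. Their levels were 189 CPM in injured and 56.2 CPM in intact cells, and the part of free RNA in either was not tested. The 2 classes labelled venous differed widely in Fabp4, and likewise in Cd36, of which EC_VEN-PV- held 6 injured UMIs and 1 intact UMI.

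Fabp5, the second carrier, was not lower. It stood at 376 CPM (7523 UMIs) in injured and 283 CPM (1286 UMIs) in intact endothelium, a ratio of 1.33 (1.25 to 1.41), but when cells were thinned to 2000 UMIs the log2 ratio was 0.05 in place of 0.40. EC_CAP-PV- had 1381 CPM in injured and 943 CPM in intact cells, a ratio of 1.47 (1.32 to 1.63). EC_ART had 184 CPM (374 UMIs) in injured and 58.1 CPM (35 UMIs) in intact cells, a ratio of 3.17 (2.24 to 4.62). At 2000 UMIs, 21.6% (15.1 to 29.4) of injured and 13.0% (6.14 to 23.3) of intact EC_ART cells had a UMI, with intervals that overlap. In EC_CAP-PV- these shares were 64.5% in injured and 66.25% in intact cells, with a median of 1 UMI in both. EC_VEN-PV+ had 479 CPM in injured and 525 CPM in intact cells, a ratio of 0.912 (0.838 to 0.994). Fibroblast-like cells had 114 CPM in injured and 7.89 CPM in intact nerve, and the part of free RNA in the injured levels was not tested.

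Set against each other, the 2 carriers were in a different proportion in the 2 libraries. There were 6.27 Fabp4 UMIs per Fabp5 UMI (5.62 to 7.01) in injured and 27.6 (19.7 to 39.8) in intact arterial cells. The proportion was 12.3 (11.7 to 13.0) in injured and 21.7 (19.7 to 23.8) in intact EC_CAP-PV- cells. It was 11.97 (11.5 to 12.5) in injured and 20.2 (18.7 to 21.8) in intact EC_VEN-PV+ cells. In all 3 the intervals of the libraries are apart, with fewer Fabp4 per Fabp5 UMI in injured cells. The classes with an injured level only were at 7.52 in EC_IMMAT, 6.75 in EC_TIP and 6.95 in EC_PROLIF. The ratio compares libraries and not the absolute levels of the 2 genes.

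Barrier cells (EC_BAR) had higher CPM of Fabp4, Fabp5 and Cd36 in the injured library, but on few molecules. For Gpihbp1 the ratio there was 1.19, with an interval, 0.890 to 1.56, that includes 1. Fabp4 had 417 CPM (148 UMIs) in 36 injured and 130 CPM (177 UMIs) in 181 intact cells. Fabp5 had 132 CPM (47 UMIs) in injured and 6.61 CPM (9 UMIs) in intact cells, and Cd36 had 78.9 CPM (28 UMIs) in injured and 25.7 CPM (35 UMIs) in intact cells. The Fabp4, Fabp5 and Cd36 values rested on few cells: 1 cell held 94 of the 148 injured and another 125 of the 177 intact Fabp4 UMIs. In injured cells, 3 held 41 of the 47 Fabp5 UMIs. For Cd36, 1 cell held 13 of the 28 injured and another 16 of the 35 intact UMIs. At 2000 UMIs, Fabp4 was in 14.3% (4.81 to 30.3) of injured and 7.59% (3.85 to 13.2) of intact barrier cells, with intervals that overlap.

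Aqp7, the glycerol channel, stood at 5.15 CPM (103 UMIs) in injured and 58.3 CPM (265 UMIs) in intact endothelium, 11.3-fold lower (8.98 to 14.4). It was lower in each of the 3 endothelial classes in which it was measured. EC_CAP-PV- had 56.1 CPM (59 UMIs) in injured and 391 CPM (190 UMIs) in intact cells, 6.97-fold lower (5.18 to 9.50). EC_ART had 5.91 CPM (12 UMIs) in injured and 41.5 CPM (25 UMIs) in intact cells, and EC_VEN-PV+ had 0.841 CPM (4 UMIs) in injured and 20.8 CPM (28 UMIs) in intact cells, 24.7-fold lower (8.66 to 97.1). At 2000 UMIs, 10.5% (4.66 to 19.7) of injured and 56.2% (44.7 to 67.3) of intact EC_CAP-PV- cells had a UMI. EC_TIP had 0 UMIs in 100 injured cells, which allows a level of up to 1.52 CPM. Aqp7 stayed past 2-fold in all 18 settings tried for single genes, without EC_CAP-PV- too, where the log2 ratio was -1.68 against -2.64 with it.

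**Figure D3:**
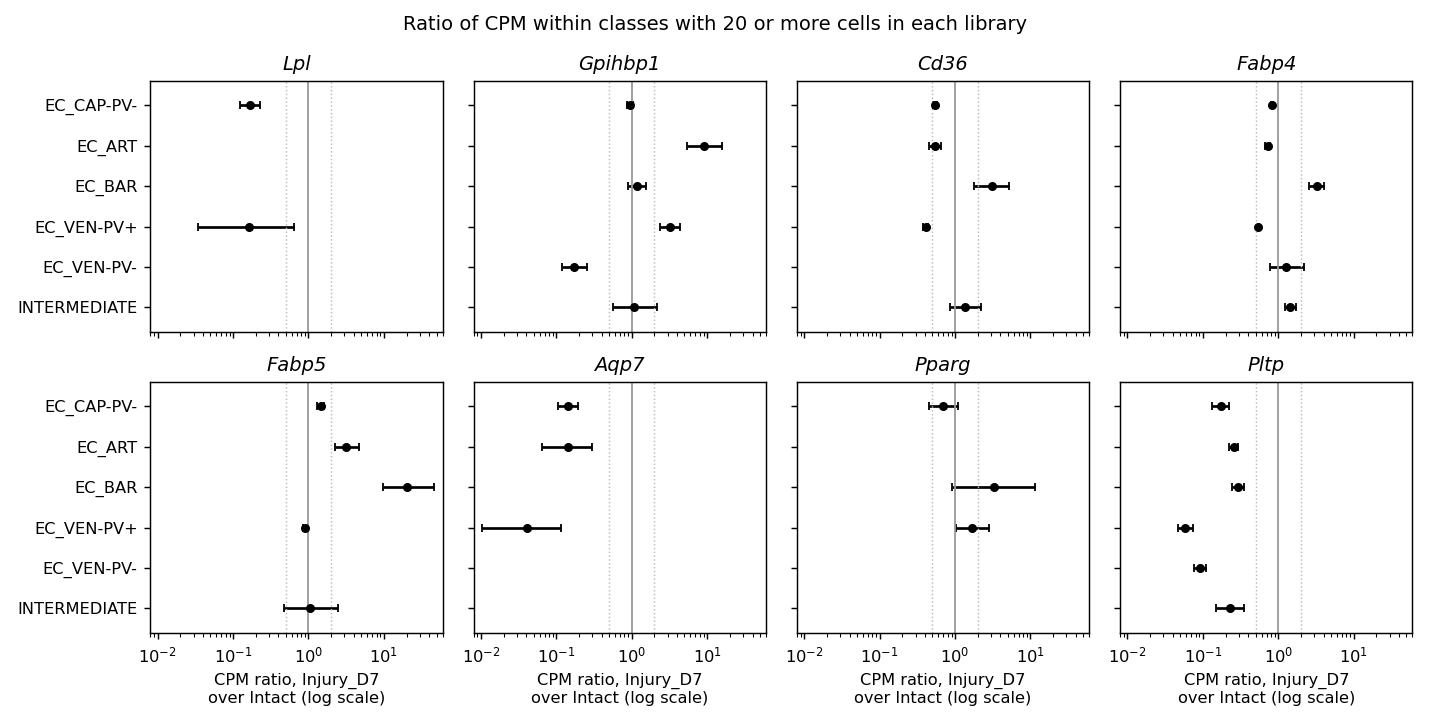
Ratio of CPM, Injury_D7 over Intact, on a log axis, for 8 genes within the 6 classes with 20 or more cells in each library; points with more than 3 UMIs in each library are drawn with exact 95% intervals, and dotted lines mark 2-fold. Pltp lies left of the lower line in every class, Gpihbp1 lies on both sides, and Cd36 is below 1 in EC_CAP-PV-, EC_ART and EC_VEN-PV+.

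Pltp, the phospholipid transfer protein, was lower in injured cells of every class that could be compared. Pooled, it stood at 65.4 CPM (1308 UMIs) in injured and 806 CPM (3660 UMIs) in intact endothelium, 12.3-fold lower (11.6 to 13.1), and its log2 ratio of -3.52 had a percentile of 0.145 among measured genes. EC_VEN-PV+ had 19.98 CPM in injured and 342 CPM in intact cells, 17.1-fold lower (13.7 to 21.6). EC_VEN-PV- had 107 CPM in injured and 1154 CPM in intact cells, 10.8-fold lower (9.04 to 13.0). Both fold values lie above the intervals of the other classes. EC_CAP-PV- had 79.9 CPM in injured and 465 CPM in intact cells, 5.82-fold lower, and EC_ART had 185 CPM in injured and 727 CPM in intact cells, 3.93-fold lower. EC_BAR had 380 CPM in injured and 1305 CPM in intact cells, 3.43-fold lower (2.88 to 4.12).

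The order of Pltp over classes was unlike that of the uptake genes. EC_BAR (1245 to 1367 CPM) and EC_VEN-PV- (1061 to 1253 CPM) led in intact nerve with intervals that overlap. EC_BAR led in injured nerve, followed by EC_ART (167 to 205 CPM) and EC_VEN-PV- (90.3 to 125 CPM). Injured EC_TIP cells had 13.2 CPM and EC_IMMAT cells 51.0 CPM. At 2000 UMIs, 45.7% (28.8 to 63.4) of injured and 91.7% (86.0 to 95.7) of intact EC_BAR cells had a UMI. EC_BAR held 10.3% of the injured and 48.5% of the intact endothelial Pltp UMIs, and made up 1.78% of all injured and 30.0% of all intact endothelial UMIs. With every class weighted as in the intact library, an alternative chosen after the data were seen, the log2 ratio was -2.18. Pooled, the 8 markers of pericytes and smooth muscle, all detected in both, summed to 60.6 CPM in injured and 407 CPM in intact endothelium. They ranged from 13.2 to 216 CPM over injured and from 50.6 to 1006 CPM over intact classes of at least 20 cells. EC_BAR held 1370 of their 1848 intact UMIs, and Acta2, a gene of this list, led the 10 most enriched genes of intact EC_BAR. Their sum in EC_BAR was 67.6 CPM in injured and 1006 CPM in intact cells. In intact EC_VEN-PV- only 2 of the 8 were detected, but they summed to 475 CPM, against 13.2 CPM in injured cells. EC_CAP-PV- had 18.1 CPM in injured and 241 CPM in intact cells, and EC_VEN-PV+ had 23.8 CPM and 50.6 CPM. In EC_ART the direction was opposite to that of Pltp, with 216 CPM in injured and 56.4 CPM in intact cells. Without every cell that held a fibroblast or pericyte marker UMI, the log2 ratio of Pltp was -2.97. The part of pericyte and smooth muscle RNA in the Pltp difference was not tested.

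Pooled, barrier markers were lower in injured cells, as Pltp was. The 7 genes, all detected in both, summed to 782 CPM in injured and 4626 CPM in intact endothelium, and ranged from 191 to 3770 CPM over injured and from 266 to 9471 CPM over intact classes of at least 20 cells. They were at 2441 CPM in injured and 6155 CPM in intact EC_ART cells, and the EC_VEN-PV- sums are given above. In EC_CAP-PV- the sums were closer, 1148 CPM in injured and 1363 CPM in intact cells, and in EC_VEN-PV+ 191 CPM in injured and 266 CPM in intact cells. In these 2 classes Pltp was 5.82-fold and 17.1-fold lower. The part of the barrier shift in the other classes was not tested.

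**Figure D4:**
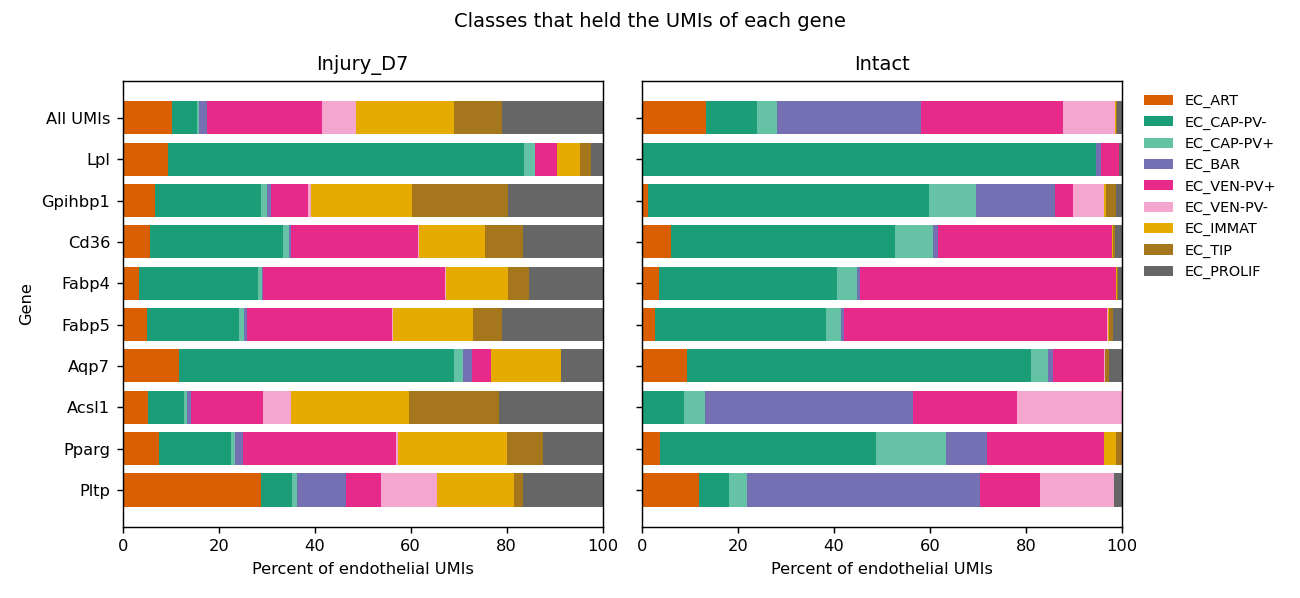
Percent of all endothelial UMIs, and of the UMIs of each gene, that each class held, Injury_D7 left and Intact right; each bar sums to 100%. EC_CAP-PV- held most Lpl and Aqp7 UMIs in both libraries, and EC_BAR held 10.3% of the Pltp UMIs in Injury_D7 and 48.5% in Intact.

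Pparg and Acsl1 did not differ beyond counting error when pooled. Pparg, the nuclear receptor, stood at 18.6 CPM (371 UMIs) in injured and 18.1 CPM (82 UMIs) in intact endothelium, a ratio of 1.03 (0.807 to 1.32). In EC_CAP-PV- it stood at 53.2 CPM in injured and 76.2 CPM in intact cells, and the interval of the ratio, 0.453 to 1.09, includes 1. In EC_VEN-PV+ it stood at 24.8 CPM in injured and 14.9 CPM in intact cells, a ratio of 1.67 (1.03 to 2.83), while Cd36 and Fabp4 had ratios below 1 there. Acsl1, the acyl-CoA synthetase, stood at 6.70 CPM (134 UMIs) in injured and 5.06 CPM (23 UMIs) in intact endothelium, a ratio of 1.32 (0.846 to 2.16). At these counts no class gave Acsl1 more than 33 injured or 10 intact UMIs, and a difference in it was not detectable at this depth. The share of cells with a Pparg UMI was 20.4% in injured and 9.19% in intact endothelium, but 4.06% and 3.77% at 2000 UMIs per cell.

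Within classes, the calls were read against each class's own background. In EC_CAP-PV-, 3 of 8 measured members were lower, where 9.21% of all measured genes were, and 0 were higher, where 5.76% were. In EC_VEN-PV+, 3 of 7 were lower (background 4.61%) and 1 was higher (3.77%). In EC_ART, 2 of 6 were lower (7.31%) and 2 were higher (6.07%), and in EC_VEN-PV-, 2 of 4 were lower (6.34%) and 0 were higher (7.91%). In EC_BAR, 1 of 6 was lower (6.87%) and 4 were higher (6.29%), the 4 being Fabp4, Fabp5, Cd36 and Pparg. These 4 rest on little: Pparg had 6 injured and 7 intact UMIs, and most Fabp4, Fabp5 and Cd36 UMIs were in a few cells. At 2000 UMIs, the share of intact cells with Fabp4 was 7.59% (3.85 to 13.2) in EC_BAR and 9.38% (6.51 to 13.0) in fibroblast-like cells. In injured nerve it was 14.3% (4.81 to 30.3) in EC_BAR and 5.02% (2.62 to 8.61) in fibroblast-like cells. The intervals overlap in both libraries. Counted per cell at 2000 UMIs, a median of 4 of the 9 members had a UMI in injured and 5 in intact EC_CAP-PV- cells, 2 in injured and 3 in intact EC_VEN-PV+ cells, and 1 in EC_BAR cells of either library.

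The members fell into groups by their pattern over the 16 class-by-library groups of at least 20 cells, read as the Pearson correlation of log2(CPM + 5); the groups share 2 libraries, their depth and the classing, so this is a description. Among 7906 genes, the 2 most like Fabp4 were Cd36 (r = 0.98) and Fabp5 (r = 0.92), and Fabp4 and Cd36 were in turn the 2 most like Fabp5. Pltp was most like Pcp4l1 (r = 0.98), Ccnd2 (0.95) and Id3 (0.95), and its correlation with Fabp4 was -0.29. Aqp7 was most like Timp4 (0.96), Lnx1 (0.91) and Slc26a10 (0.91), and Gpihbp1 most like Ctnnbip1 (0.91), Rgcc (0.88) and Arhgap27 (0.86). Lpl was most like Fam217b (0.84), Pparg like Fmnl1 (0.88), and Acsl1 like Mrpl37 (0.83).

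Beyond the members, 126 other genes of lipid uptake, transport, synthesis and use were counted from 8 lists. Of these 83 were measured, 9 were lower and 5 higher in injured endothelium, near the 6.82% and 4.79% of all measured genes, with a median log2 ratio of -0.01. The counts are therefore no result about lipid genes as a group, and the genes below are described singly, with the number of 18 alternative settings in which each stayed past 2-fold. In the list of fatty acid uptake and activation, 3 of 10 were lower and 0 higher, and 1 was lower with classes weighted equally or with the class mix of the intact library. Mfsd2a, a transporter of lysophospholipids at the blood-brain barrier, stood at 5.00 CPM in injured and 184 CPM in intact endothelium, 36.7-fold lower (29.8 to 45.6). It is one of the 7 barrier markers, and within EC_BAR it stood at 138 CPM in injured and 470.2 CPM in intact cells, 3.41-fold lower (2.54 to 4.65). With the class mix of the intact library its log2 ratio was -1.93, against -4.24, and it stayed past 2-fold in all 18. Flt1, a receptor for Vegfb, stood at 445 CPM in injured and 1192 CPM in intact endothelium, 2.68-fold lower, in 15 of 18, and its log2 ratio was -0.84 with classes weighted equally. In lipoprotein handling and cholesterol efflux, 2 of 12 were lower and 2 higher. The cholesterol exporter Abca1 stood at 336 CPM in injured and 80.6 CPM in intact endothelium, a ratio of 4.17 (3.75 to 4.65), and its partner Abcg1 at 62.7 CPM in injured and 21.4 CPM in intact endothelium, a ratio of 2.94. Apoe, a carrier protein of lipoproteins, stood at 242 CPM in injured and 1304 CPM in intact endothelium, 5.39-fold lower, and Acvrl1, a receptor that also takes up low-density lipoprotein, at 126 CPM in injured and 271 CPM in intact endothelium, 2.16-fold lower. Abca1 and Apoe stayed past 2-fold in 18 of 18 settings and Abcg1 in 17, but Acvrl1 in 7.

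Abca1 was higher within each of the 5 endothelial classes compared, from 2.48-fold in EC_VEN-PV+ (415 CPM in injured and 167 CPM in intact cells) to 12.5-fold in EC_BAR (431 CPM in injured and 34.5 CPM in intact cells). Among lipid transcription factors 1 of 12 was lower and 0 higher: Tcf15, which with Meox2 drives fatty acid uptake genes in heart endothelium, stood at 61.9 CPM in injured and 138 CPM in intact endothelium, past 2-fold in 12 of 18 settings and at a log2 ratio of -0.20 without EC_CAP-PV-. In EC_CAP-PV- Tcf15 stood at 177 CPM in injured and 749 CPM in intact cells, 4.24-fold lower (3.54 to 5.08). Tcf15 is one of the 6 capillary markers. Among other targets of peroxisome proliferator-activated receptors, 0 of 13 were lower and 1 was higher, Hilpda, a lipid droplet protein, at 28.8 CPM in injured and 10.6 CPM in intact endothelium, past 2-fold in 12 of 18 settings.

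Of genes of fatty acid oxidation, 0 of 19 were lower and 1 was higher, Acads, a dehydrogenase of short fatty acids, at 42.9 CPM in injured and 14.1 CPM in intact endothelium, past 2-fold in 16 of 18 settings. Of triglyceride and lipid droplet genes, 2 of 9 were lower and 1 higher, the lower ones being the lipases Lipe, at 40.0 CPM in injured and 93.8 CPM in intact endothelium, and Mgll, at 204 CPM in injured and 422 CPM in intact endothelium. Neither was past 2-fold with classes weighted equally, with the class mix of the intact library or with 20 CPM added, and they passed in 11 (Lipe) and 8 (Mgll) of 18 settings. In fatty acid synthesis and desaturation, 1 of 8 was lower and 1 higher. Thrsp stood at 8.45 CPM in injured and 80.4 CPM in intact endothelium, 9.50-fold lower (7.90 to 11.5), and the desaturase Scd2 at 181 CPM in injured and 63.4 CPM in intact endothelium, a ratio of 2.86 (2.53 to 3.23). Thrsp stayed past 2-fold in 18 of 18 settings and Scd2 in 17, the exception being all barcodes, where its log2 ratio was -0.23. None of 9 measured genes of cholesterol synthesis passed 2-fold.

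**Figure D5:**
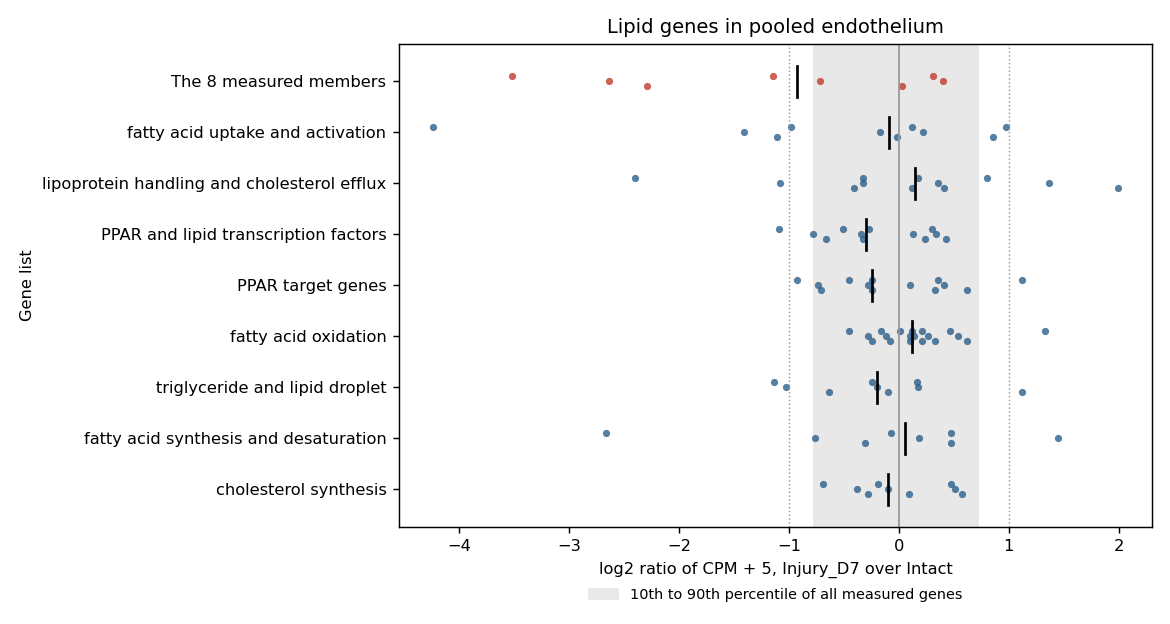
log2 ratio of CPM + 5, Injury_D7 over Intact, for the 8 measured members (red) and the measured genes of 8 further lipid lists (blue); black ticks are medians, dotted lines mark 2-fold and the grey band spans the 10th to the 90th percentile of all measured genes. The members' median is -0.93, and list medians lie between -0.30 and 0.15.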

How the data were processed

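RNA of single sorted cells was counted in 2 libraries, 1 per condition. The deposited values are whole counts of UMIs for each gene in each barcode, which the authors did not normalize. Per the file headers, the matrices came from Cell Ranger 3.0.2. The submitters' processing notes name Cell Ranger 6.1.2, Seurat 4.0.1, mm10 and GRCm38. Classes were taken from the authors' deposited cell table; the sources used here do not give the filters on cells, any doublet check or the classing method. Of 53380 features, 50604 matched GENCODE vM21 (GRCm38) by ID and version, which gave positions. No doublet caller was run, and cells above the 95th percentile of UMIs were left out as an alternative.

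UMIs were summed per class and library (Python 3.11.15, scipy 1.17.1) and given as CPM. Log2 ratios had 5 CPM added, and 2-fold and a mean of 10 CPM were the limits. Shares of cells are given as deposited and after thinning each cell to 2000 UMIs without replacement (seed 1), which leaves out shallower cells. Fibroblast-like cells had no class, 1000 or more UMIs, 4 or more detected fibroblast markers, and fewer UMIs of pan-endothelial than of fibroblast markers. A share of 0 or a level of 0 was given the limit of 3 counts. No library was replicated, so edgeR 4.0.16 supplied only scaling factors. The steps were tested on simulated data. The named genes are the 9 members, up to 2 per list and direction at the most extreme log2 ratios past 2-fold, and up to 3 genes most similar to each member. The members and lists were chosen with earlier results of these data known. In total 20 alternatives were run.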

Additional observations from a re-analysis of the deposited data

Results flagged for a closer look

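Gpihbp1 differed in opposite directions between classes under the same comparison. Its log2 ratio, injured over intact, was 2.95 in EC_ART and 1.56 in EC_VEN-PV+, and -2.35 in EC_VEN-PV-. Cd36 had a log2 ratio of 1.45 in EC_BAR and of -1.28 in EC_VEN-PV+. The EC_BAR value rests on 28 injured and 35 intact UMIs, of which 1 cell in each library held 13 and 16. With 1 library per condition these differences between classes were not tested.

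Outside the annotated endothelium, Pltp stood at 167 CPM (158 to 177) in injured and at 139 CPM (129 to 150) in intact barcodes without a class. In the fibroblast-like cells among them it stood at 243 CPM in injured and 81.8 CPM in intact nerve, a direction opposite to that of endothelium, and this too was not tested.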

How the results depend on the processing

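No member called past 2-fold changed sign in any alternative; of the other named lipid genes Scd2 did, with all barcodes (log2 ratio -0.23). Members at least 2-fold lower numbered 4, and 2 at a mean of at least 50 CPM or without EC_CAP-PV-; members higher numbered 0, and 1 with all barcodes (Fabp5, log2 ratio 1.03) or without EC_CAP-PV- (Gpihbp1, 1.11). Without every shared barcode Fabp4 also passed 2-fold (-1.08), making 5. All genes lower numbered 564, and 308 with 20 CPM added, 251 at 50 CPM and 352 with the class mix of the intact library. All genes higher numbered 396, and 240 with classes weighted equally, 191 with 20 CPM added, 167 at 50 CPM and 235 with that class mix. Other lipid genes lower numbered 9, and 17 with all barcodes, 4 with classes weighted equally or that class mix, and 5 with median-ratio size factors or 20 CPM added. Other lipid genes higher numbered 5, and 2 with 20 CPM added or at 50 CPM. The cause of these moves was not tested, except that a higher mean leaves fewer genes. Scaling by size factors put the median log2 ratio of all genes at 0.16 (TMM 0.14), with 467 genes lower and 546 higher (TMM 486 and 531). Pltp and Aqp7 passed 2-fold in 18 of 18 settings, Lpl in 17 and Cd36 in 13, and Pparg and Acsl1 in 0. The class mix and the fit without EC_CAP-PV- were chosen after the data were seen. INTERMEDIATE had too few cells of at least 3000 UMIs for a value. No paired analysis was possible because each condition is 1 library. Injured cells were deeper, so low genes are better counted there.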

Other observations

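Cells labelled INTERMEDIATE, led by genes of other cell types, had 133 CPM of Pltp in injured and 582 CPM in intact nerve, 4.37-fold lower (2.87 to 6.80). Their Fabp4 stood at 2085 CPM in injured and 1459 CPM in intact nerve, a ratio of 1.43 (1.21 to 1.69). These values rest on few cells: 1 injured cell held 25 of the 32 Pltp UMIs, and 1 intact cell held 85 of the 203 Fabp4 UMIs. In that class 2 of 6 measured members were lower and 0 higher, where 16.5% of its measured genes were lower and 14.9% higher. In barcodes without a class that were not fibroblast-like, Lpl stood at 75.6 CPM (229 UMIs) in injured and 83.5 CPM (133 UMIs) in intact nerve, with intervals that overlap.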
